A study of Homo sapiens with 372 samples.

Results

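The 10 genes CENPA, CENPE, CENPF, CENPH, CENPK, CENPM, CENPN, CENPU, CENPW and NDC80 encode proteins of the centromere and kinetochore. They were taken by symbol from the 9664 genes with values in single A2780 cells, and all 10 were found. A2780 is an established human ovarian endometrioid adenocarcinoma line, and each library is 1 cell. Untreated cells (Ctrl, 46 cells) were set beside cells given 5 nM paclitaxel for 16 h (Pac16h, 56 cells) or 48 h (Pac48h, 53 cells), 75 µM celecoxib for 2 h (Cele2h, 63 cells) or 16 h (cele16h, 61 cells), or both drugs at these doses for 16 h (PacCele16h, 59 cells). No transgene or other agent is named for any condition, and the cells were trypsinized before capture. No separate cultures are named within a condition, and its cells share a code in their descriptions that no other condition has, so it counts as 1 sample. No test, p-value or standard error between conditions was therefore made, every SD is a spread over cells, and all 5 treatments are set against the same control cells.

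The kinetochore is the protein assembly on the centromere that attaches a chromosome to spindle microtubules. Nucleosomes with the histone H3 variant CENP-A mark its place, the inner kinetochore proteins build on them, the Ndc80 complex of the outer kinetochore grips the microtubule, and a fibrous corona forms while the attachment is open. Many of these genes are transcribed in S, G2 and M phase and are low in cells that have left the cycle. Paclitaxel stabilizes microtubules and celecoxib inhibits cyclooxygenase 2, so the design asks how the transcriptome of a cell answers each drug and the pair.

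The members lie on 8 chromosomes of hg38 (GENCODE version 44). CENPA is at chr2:26764289-26801067, CENPF at chr1:214603185-214664574, CENPH at chr5:69189574-69210357, CENPN at chr16:81006552-81033114, CENPW at chr6:126340115-126348875 and NDC80 at chr18:2571557-2616635, all on the plus strand. CENPE at chr4:103105349-103198445, CENPK at chr5:65517766-65563168, CENPM at chr22:41938737-41947152 and CENPU at chr4:184694085-184734130 are on the minus strand. All are protein-coding, and the canonical transcript runs from 809 bases in 3 exons (CENPW) to 10290 bases in 20 exons (CENPF). Exons of CENPN overlap CMC2 and CENPN-AS1 on the opposite strand, exons of CENPU overlap PRIMPOL, and the whole CENPW transcript lies inside an antisense pseudogene. The library protocol is not stated to keep strand, so reads of these pairs may not be told apart.

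Promoters are shown because the members differed in how they followed S and G2/M genes across cells, as given further on. The cell cycle genes homology region (CHR, written TTTGAA or TTTAAA) and the CCAAT box are letters known from promoters of G2/M genes. The RefSeq table of GRCh38.p14 holds 8 members, without CENPH and CENPM. Each line gives the 150 bases before and 30 from the start, 5′ to 3′ on the gene's strand, with CHR and CCAAT letters on either strand in capitals. The first 4 genes are the members of the Seurat G2/M list, and CENPN is the other member with a CHR match.
CENPA: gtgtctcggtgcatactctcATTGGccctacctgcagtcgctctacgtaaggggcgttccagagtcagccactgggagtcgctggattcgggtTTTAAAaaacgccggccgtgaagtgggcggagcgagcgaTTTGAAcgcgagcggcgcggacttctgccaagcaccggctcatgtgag
CENPE: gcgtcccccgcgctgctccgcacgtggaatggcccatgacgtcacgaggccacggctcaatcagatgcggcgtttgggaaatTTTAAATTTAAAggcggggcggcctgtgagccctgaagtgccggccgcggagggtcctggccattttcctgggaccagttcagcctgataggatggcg
CENPF: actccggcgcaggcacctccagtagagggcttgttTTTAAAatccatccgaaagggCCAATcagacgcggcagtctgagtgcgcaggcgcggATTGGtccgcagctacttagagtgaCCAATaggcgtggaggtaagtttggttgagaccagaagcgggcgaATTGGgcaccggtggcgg
NDC80: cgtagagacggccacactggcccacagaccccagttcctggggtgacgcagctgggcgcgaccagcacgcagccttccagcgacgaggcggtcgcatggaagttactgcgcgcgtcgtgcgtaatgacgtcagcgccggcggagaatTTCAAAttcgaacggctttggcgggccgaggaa
CENPN: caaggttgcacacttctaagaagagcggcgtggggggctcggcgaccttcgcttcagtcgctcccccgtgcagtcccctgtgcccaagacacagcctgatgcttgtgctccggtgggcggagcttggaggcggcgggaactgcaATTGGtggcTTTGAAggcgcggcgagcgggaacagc
The windows are chr2:26785906-26786085 (+ strand), chr4:103198314-103198493 (- strand), chr1:214603045-214603224 (+ strand), chr18:2571407-2571586 (+ strand) and chr16:81007064-81007243 (+ strand). CENPA held TTTAAA at -57 and TTTGAA at -18, CENPE held TTTAAA at -68 and -62, and CENPF held TTTAAA at -115. NDC80 held TTTGAA on the opposite strand at -3, and CENPN held it at 4. Positions are of the first letter on the gene's strand, with the start at 1 and the base before it at -1. CENPF also held 4 CCAAT boxes. A CHR spelling was found in 5 of the 8 members' windows, against 14.5% of 27305 promoters of the same length. It was in 28 of 41 other G2/M genes and 2 of 32 other S genes. TTTGAA was in 3 of the 8 members, 25 of 41 other G2/M genes and 8.75% of all promoters. TTTAAA was in 3, 5 and 6.94% of the same sets. A CCAAT box was found in 5 of 8, against 26.4% of all promoters, 28 of 41 other G2/M genes and 18 of 32 other S genes. CENPK with 3 boxes and CENPU with 1 had CCAAT only, and CENPW had neither. A match is a description of letters, not of a bound site.

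Levels are E-values, log2(N/10 + 1), where N is the TPM of the gene scaled to the spike-in RNA of the cell. N is per transcript length, so levels of different genes can be set side by side. In the control cells CENPW had the highest mean E-value, 4.52 ± 1.56 (SD over 46 cells), followed by CENPM at 4.34 ± 1.51, CENPN at 3.78 ± 1.36 and CENPF at 3.57 ± 1.47. CENPK was at 3.38 ± 1.27, CENPU at 2.57 ± 1.25, CENPA at 2.43 ± 1.98, NDC80 at 2.19 ± 2.03, CENPE at 2.01 ± 1.28 and CENPH at 1.69 ± 1.27. CENPF was detected (E above 0) in all 46 control cells, which with the exact Clopper-Pearson 95% interval is a share of at least 92.3%. NDC80 and CENPA were detected in 60.9% (45.4% to 74.9%) and 69.6% (54.2% to 82.3%) of them. Where NDC80 was detected its mean E-value was 3.60, close to that of CENPF, so its low mean came with many cells at 0. Intervals cover counting error only.

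A detection limit of over 30% of cells in any condition was used for all genes. All 10 members passed it somewhere, and 9 passed it in every condition. CENPH did not at cele16h, where it was detected in 27.9% of cells. The number of genes detected ran from 4746 to 8499 per cell, and the reads behind each cell are unknown. Median log2 totals of N, relative to Ctrl, were 0.99 lower at Pac16h, 0.64 lower at Pac48h, 0.76 lower at Cele2h, 1.52 lower at cele16h and 0.49 higher at PacCele16h. Each difference is therefore also given with every cell brought to the same total. Of 16 markers of the line and of other cell types, 5 could be read here, among them KRT18 (detected in 23.9% of control cells), VIM (76.1%) and MKI67 (89.1%), so the labelled cell type could not be checked further.

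**Figure D1:**
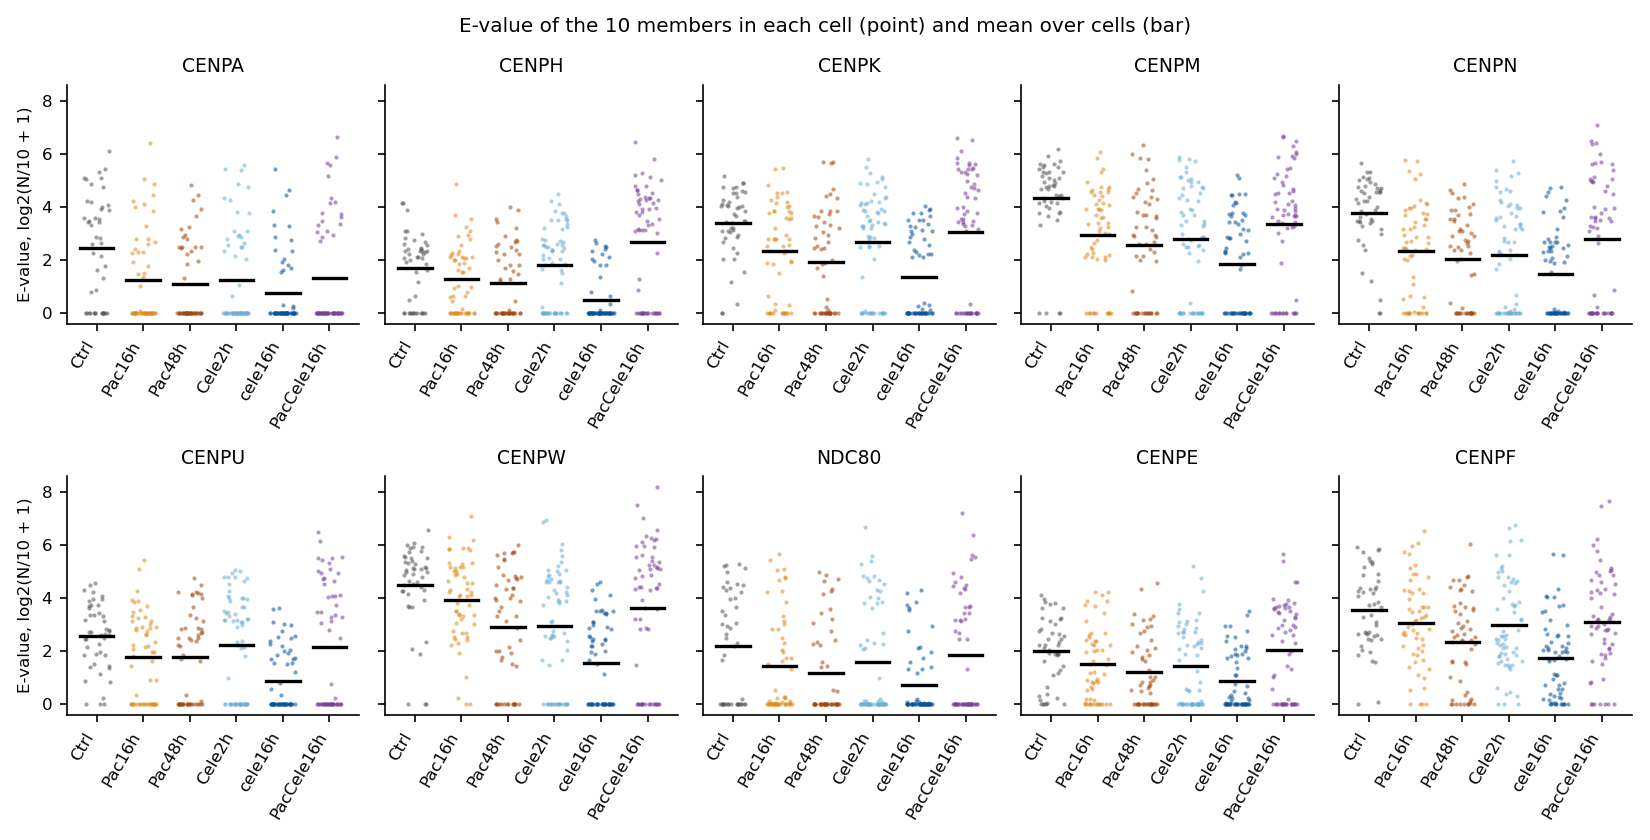
Deposited E-value (y axis, log2 scale) of each member in every cell (points) of the 6 conditions, with the mean over cells (black bar). Control cells of CENPM, CENPN and CENPW lie mostly between 3 and 6, and more treated cells lie at 0, except for CENPW at Pac16h. CENPH at PacCele16h has the highest bar in its panel, at 2.69.

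The members were lower than in control cells in most treatments, and lowest at cele16h. Mean E-values were highest in Ctrl for 8 of 10 members and lowest at cele16h for all 10. With every cell at the same total these counts were 6 and 9, CENPA being lowest at PacCele16h. The exceptions at the top were CENPE and CENPH, highest at PacCele16h, and at the same total CENPF and CENPW (Pac16h), CENPU (Cele2h) and CENPH (PacCele16h). No 2 conditions that were neighbours in a member's order differed by more than the smaller of their SDs over cells, in 50 such steps on either scale. Orders were not counted over all genes. As deposited, the totals of N were also lowest at cele16h (median log2 -1.52 from Ctrl).

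At Pac16h 6 of 10 members were lower than Ctrl by over log2 of 1.5 (0.585) and none was higher, against 37.3% of 9655 genes lower and 0.0932% higher. The median member difference was -0.75 and the median of all genes -0.41. With equal totals 3 members were lower, against 10.0% of genes lower and 1.40% higher, and the medians were -0.37 and -0.07. At Pac48h 9 members were lower and none higher, against 26.6% and 0.922% of genes. Its median member difference was -1.28 beside -0.26 over all genes. With equal totals 7 were lower, against 5.78% of genes lower and 3.28% higher, with medians of -0.83 and 0.003.

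At Cele2h 7 members were lower by over the limit and none higher, against 25.7% and 1.12% of genes, with medians of -0.64 and -0.26. With totals made equal 4 were lower, against 8.12% lower and 3.31% higher, with medians of -0.30 and -0.02. At cele16h all 10 were lower, against 43.9% of genes lower and 0.383% higher, with medians of -1.76 and -0.48. With totals made equal 9 were lower, against 7.95% lower and 7.37% higher, with medians of -1.08 and 0.03.

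At PacCele16h the scales gave different counts. As deposited, 4 members (CENPA, CENPM, CENPN and CENPW) were past the limit downward and CENPH upward, against 1.76% of genes lower and 30.4% higher. The median member difference was -0.42, while the median gene was 0.33 above Ctrl. At the same total 8 members were lower and none was past the limit upward, against 5.80% lower and 5.96% higher, with medians of -0.77 and 0.02. NDC80 passed by little, at -0.587. From the ratio of linear means in place of mean E-values, no member was past the limit downward and 3 were upward at PacCele16h. Of all genes, 0.414% were lower and 56.8% higher on that measure. The median member difference was then 0.18, and the median gene was 0.67 above Ctrl.

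**Figure D2:**
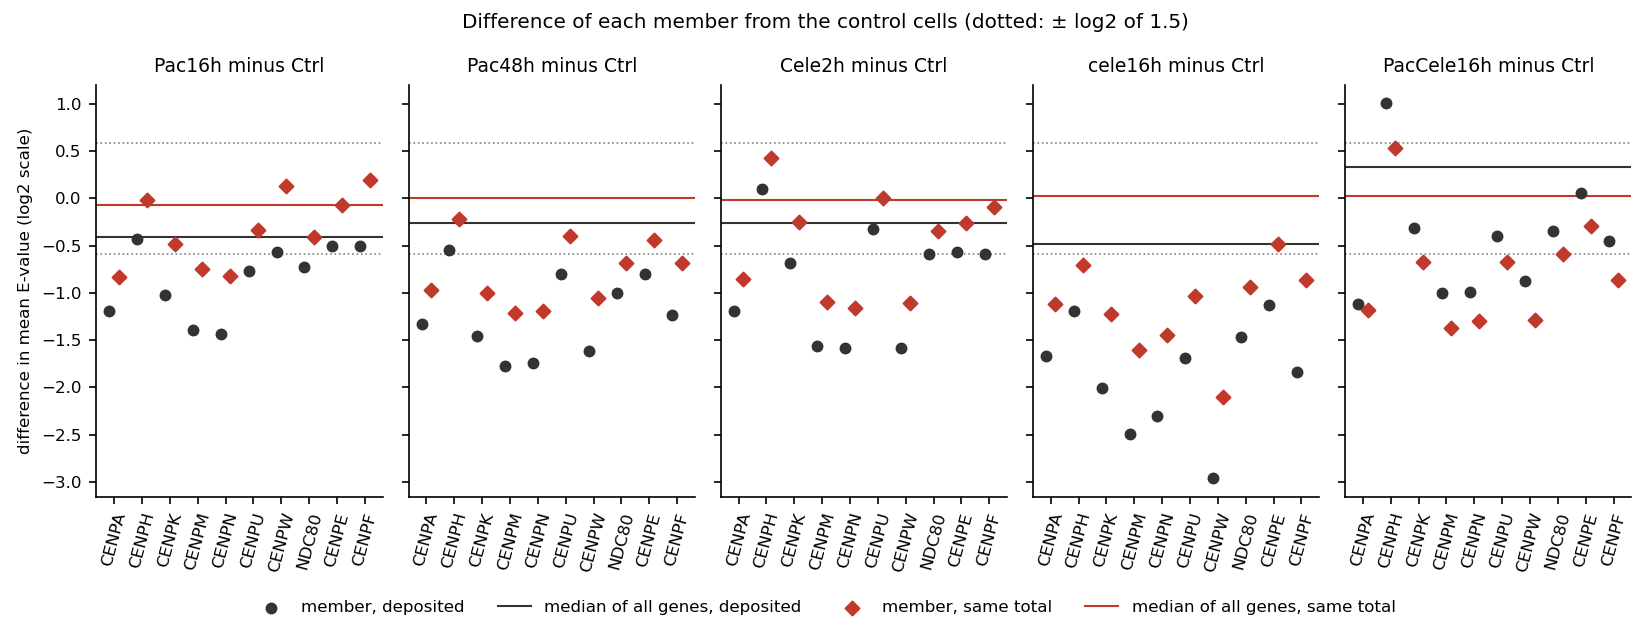
Mean E-value of treated minus control cells (y axis, log2 scale) for each member (x axis) in the 5 treatments, as deposited (black circles) and at the same total (red diamonds). Lines mark the median of all genes on each scale and dotted lines ± log2 of 1.5. At cele16h and Pac48h every diamond lies below the red line, and at PacCele16h CENPH alone lies above it.

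CENPA, the histone that marks the centromere, ran in control cells from 0 to 6.10 with a median of 2.73. In every treatment its median over cells was 0. The highest cell reached 6.42 at Pac16h, 4.83 at Pac48h, 5.58 at Cele2h, 5.44 at cele16h and 6.63 at PacCele16h. The highest control cell lay within the range of Pac16h and PacCele16h cells and above all cells of the other treatments. CENPA was detected in 42.9%, 37.7%, 38.1%, 31.1% and 32.2% of cells in these treatments. Where detected, its level as deposited differed from Ctrl by -0.60, -0.58, -0.24, -1.04 and 0.58. At the same total CENPA had 2.79, 2.81, 3.07, 2.92 and 2.64 where detected, against 2.91 in Ctrl. Its difference from Ctrl over all cells was -1.19, -1.33, -1.19, -1.67 and -1.12, and at the same total -0.83, -0.96, -0.86, -1.12 and -1.18. Its place was in the lowest 3.84% of genes or below in each treatment at the same total.

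CENPM and CENPN moved alike among the inner kinetochore members. CENPN binds the CENP-A nucleosome directly, and CENPM belongs to a complex with CENPH, CENPI and CENPK. CENPM had a median E-value of 4.73 in control cells (0 to 6.18), 3.29 at Pac16h (0 to 6.06), 2.88 at Pac48h (0 to 6.32), 2.96 at Cele2h (0 to 5.88), 2.21 at cele16h (0 to 5.21) and 3.74 at PacCele16h (0 to 6.67). The lower quartile was 4.05 in control cells and 0 at Pac48h, Cele2h and cele16h, while the highest cell lay between 5.21 and 6.67 in every condition. Its differences at the same total were -0.75 at Pac16h, -1.21 at Pac48h, -1.09 at Cele2h, -1.60 at cele16h and -1.37 at PacCele16h. Those of CENPN were -0.83, -1.19, -1.16, -1.45 and -1.30 in the same order. Both genes were past the limit in all 5 treatments on either scale.

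CENPW pairs with CENPT through a histone fold. Its median was 4.99 in control cells (0 to 6.59) and 4.12 at Pac16h (0 to 7.11). It was 3.34 at Pac48h (0 to 6.00), 3.14 at Cele2h (0 to 6.94), 1.67 at cele16h (0 to 4.60) and 4.41 at PacCele16h (0 to 8.20). At cele16h the highest cell was below the control median. The mean difference there, -2.95, was the largest of any member in any treatment, and at the same total it was -2.10, in the lowest 0.0932% of genes. At Pac16h CENPW was instead 0.13 above Ctrl at the same total, was detected in 96.4% of cells against 93.5%, and was -1.06 at Pac48h.

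CENPK and CENPU stood nearer to Ctrl at Cele2h than CENPM, CENPN and CENPW. CENPU is part of the CENP-O group and a docking site for the mitotic kinase PLK1. CENPU at the same total was 0.004 from Ctrl at Cele2h, and CENPK was -0.25. Both were lowest at cele16h, at -1.04 and -1.23. At PacCele16h CENPU was detected in 52.5% of cells (39.1% to 65.7%) against 93.5% (82.1% to 98.6%) in Ctrl, and its mean E-value where detected was 4.14 against 2.75. More cells were at 0 and the others were higher, so its median was 0.77 while its upper quartile was 4.34, against 2.69 and 3.59 in Ctrl.

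CENPH went its own way. Its median was 2.09 in control cells (0 to 4.16), 0.99 at Pac16h (0 to 4.87), 0.09 at Pac48h (0 to 3.98), 2.05 at Cele2h (0 to 4.49), 0 at cele16h (0 to 2.76) and 3.36 at PacCele16h (0 to 6.44). The upper quartile at PacCele16h, 4.31, lay above every control cell. Its difference was 1.00 there (0.53 at the same total), 0.10 at Cele2h (0.42) and -1.19 at cele16h (-0.70). At PacCele16h it was past the limit in cells of index block 1 (1.38) and not in those of block 3 (0.49). Index blocks are runs of 96 consecutive library indices, a grouping made here. CENPH was detected in 67.8% of PacCele16h cells and 71.7% of control cells, and its level where detected was 3.97 against 2.35. Its partner CENPK had -0.31 at PacCele16h as deposited and -0.68 at the same total.

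NDC80, the microtubule-binding subunit that gives its complex the name, had a median of 2.42 in control cells (0 to 5.29), 0.24 at Pac16h (0 to 5.66) and 0 in the other treatments. At Pac16h it was detected in 62.5% of cells against 60.9% in Ctrl, but 11 Pac16h cells and 1 control cell had E-values between 0 and 1. With E of at least 1 the shares were 42.9% and 58.7%, and the mean levels in those cells 3.33 and 3.73. Its differences at the same total were -0.41, -0.68, -0.35, -0.94 and -0.59 in the order Pac16h, Pac48h, Cele2h, cele16h and PacCele16h.

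The corona proteins are CENPE, a kinesin motor, and CENPF, a large coiled-coil protein. CENPF had a median of 3.72 in control cells (0.022 to 5.94), 3.10 at Pac16h (0 to 6.54), 2.54 at Pac48h (0 to 6.05), 2.56 at Cele2h (0 to 6.75), 1.72 at cele16h (0 to 5.67) and 3.04 at PacCele16h (0 to 7.66). It was, on the same total, 0.19 above Ctrl at Pac16h and -0.69 at Pac48h, and was -0.10 at Cele2h, -0.87 at cele16h and -0.86 at PacCele16h. It was detected in 88.7% to 96.4% of treated cells, many of them near 0 at cele16h. With E of at least 1 its share was 95.7% in Ctrl, 89.3% at Pac16h, 71.7% at Pac48h, 88.9% at Cele2h, 60.7% at cele16h and 83.1% at PacCele16h. CENPE passed the limit at the same total in no treatment, with differences from -0.08 at Pac16h to -0.49 at cele16h.

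The longer exposure was lower than the shorter for each drug. All 10 members were lower at Pac48h than at Pac16h, with a median difference of -0.30 (-0.37 at the same total), while all genes had 0.11 (0.07). CENPW and CENPF had the largest steps at the same total, -1.19 and -0.88. All 10 were lower at cele16h than at Cele2h, by a median of -1.09 (-0.68), with -0.21 (0.05) over all genes. CENPH at -1.12 and CENPW at -0.99 led at the same total. With 1 sample a condition, time and the code in the descriptions cannot be told apart.

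Over all its cells, the combination lay between its single drugs at 16 h for 8 of 10 members once totals were equal. CENPA was below and CENPH above both. On that scale 9 of 10 members were lower at PacCele16h than at Pac16h (median -0.34, 0.10 over all genes), CENPH being 0.55 higher. Against cele16h 9 of 10 were higher (median 0.29, -0.008 over all genes), with CENPA at -0.06 and CENPF at 0.003. All cele16h cells carried index block 3, and in PacCele16h cells of that block alone this did not hold. There CENPA, CENPF, CENPM, CENPN, CENPU and NDC80 were lower than at cele16h, and CENPE, CENPH, CENPK and CENPW higher. CENPM was 1.93 against 2.19 at cele16h, and CENPK 2.03 against 1.66. As deposited, 9 and 10 of 10 members were higher at PacCele16h than at Pac16h and cele16h, with medians of 0.39 and 1.35 beside 0.80 and 0.88 over all genes.

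As deposited, shares of cells and levels in the cells that had the transcript went apart between cele16h and PacCele16h. At cele16h all 10 members were detected in a smaller share of cells than in Ctrl (median change -38.3 percentage points, -3.06 over all genes) and all 10 had a lower level where detected (median -1.20, -0.61 over all genes). At PacCele16h all 10 were also detected in a smaller share (median -22.1 points, -1.69 over all genes), but 8 of 10 had a higher level where detected (median 0.51, 0.69 over all genes). At the same total, levels where detected went both ways in both treatments. CENPU had 2.63 at cele16h and 2.83 at PacCele16h against 2.31 in Ctrl, and CENPW 3.52 and 3.72 against 4.28. Genes detected per cell had a median of 6630 in Ctrl, 6329 at cele16h and 6129 at PacCele16h. The part of detection depth in the shares of cells was not tested.

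**Figure D3:**
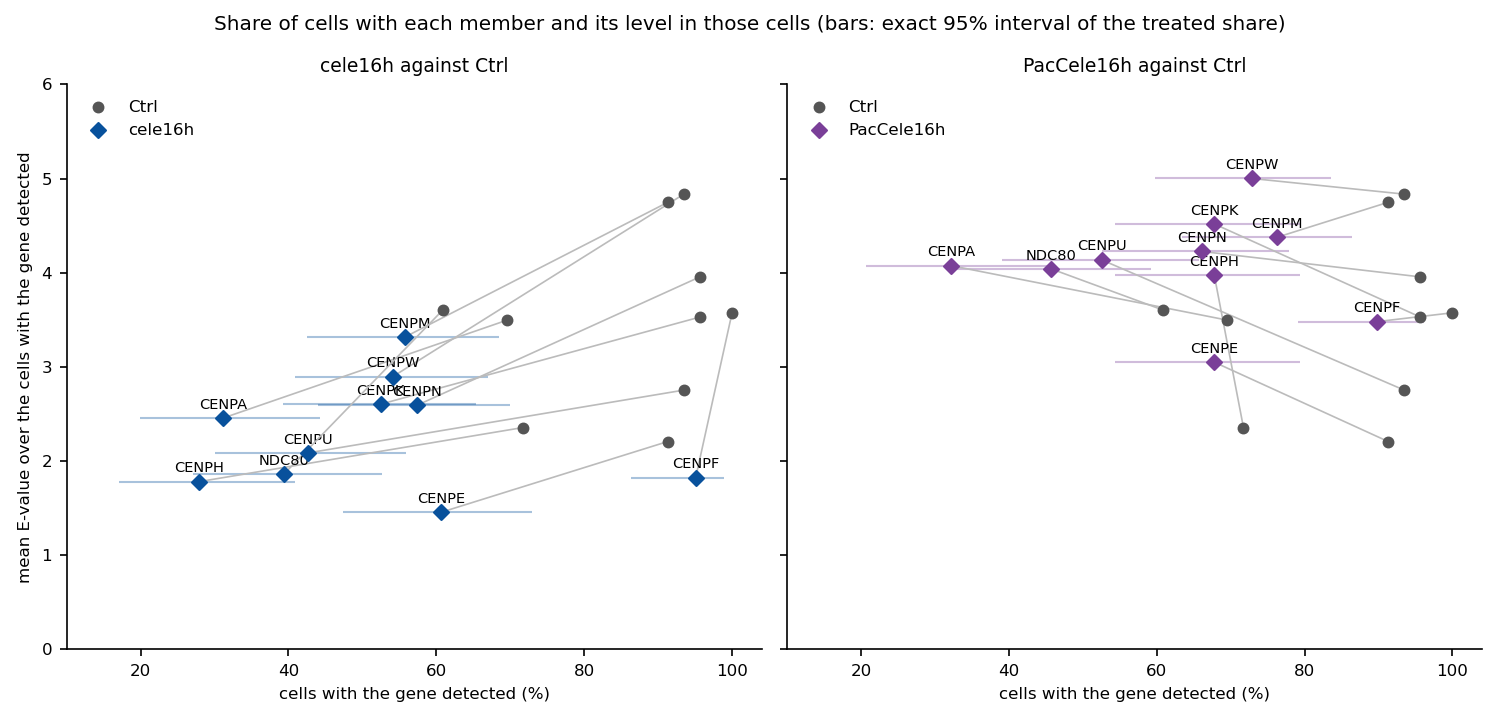
Share of cells with each member detected (x axis, %) against its mean E-value in those cells (y axis), in control cells (grey circles) and in cele16h or PacCele16h cells (diamonds, with exact 95% intervals of the share), joined by a line for each gene. Levels are as deposited. At cele16h all lines run left and down, and at PacCele16h 8 of 10 run left and up. At the same total, levels where detected went both ways in both treatments (not drawn).

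Of the 10 members a control cell had a median of 9 detected (2 to 10), a Pac16h cell 8, a Pac48h, Cele2h or PacCele16h cell 7 and a cele16h cell 5. All 10 were detected in 20 of 46 control cells, 43.5% (28.9% to 58.9%), and in 5 of 61 cele16h cells, 8.20% (2.72% to 18.1%). At most 3 were detected in 6.52% of control cells (1.37% to 17.9%), 28.3% at Pac48h (16.8% to 42.3%), 32.8% at cele16h (21.3% to 46.0%) and 16.9% at PacCele16h (8.44% to 29.0%). Each condition kept cells with all 10. The number of members followed the number of genes detected in the cell, with Pearson r from 0.26 (Pac48h, 53 cells) to 0.62 (Pac16h, 56 cells, and Cele2h, 63 cells) and Spearman rho from 0.30 to 0.69. Both numbers come from the same library.

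Across the cells of a condition the members went up and down together. At the same total, the 45 member pairs had a median Pearson r of 0.39 in Ctrl, 0.35 at Pac16h, 0.48 at Pac48h, 0.45 at Cele2h, 0.44 at cele16h and 0.46 at PacCele16h. For the 7571 genes with a share of 30% or more everywhere, the median over all pairs was 0.007 to 0.013. All 45 pairs were above 0 in 5 conditions and 44 at Cele2h, where CENPE with CENPH had -0.10. The closest pairs, by the mean of r over the 6 conditions, were CENPA with NDC80 (0.62), CENPA with CENPF (0.59), and CENPF with NDC80 (0.58). CENPM with CENPW (0.55), CENPM with CENPU (0.53) and CENPK with CENPU (0.52) led among the inner kinetochore members. CENPH had the lowest mean r with the other members, 0.27, and NDC80 the highest, 0.48. These correlations are descriptions, over cells of 1 sample that differ in depth.

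The members differed in how they followed S and G2/M genes across cells. CENPA, CENPE, CENPF and NDC80 are on Seurat's G2/M list and CENPU is on its S list, and the mean of each list was taken without the members, over 48 and 41 genes. Mean r with the G2/M genes was 0.81 for CENPF, 0.77 for NDC80, 0.73 for CENPA and 0.66 for CENPE, which exceeded their r with the S genes by 0.22 to 0.40. CENPU (0.70 with S, 0.56 with G2/M) and CENPK (0.60 and 0.50) leaned to S. CENPM (0.62 and 0.63) and CENPN (0.52 and 0.53) followed both alike, CENPW leaned to G2/M (0.54 and 0.63), and CENPH was weak with both (0.38 and 0.34). Both list means were lower in each treatment at the same total, by 0.42, 0.69, 0.55, 0.85 and 0.78 for G2/M and 0.38, 0.56, 0.39, 0.66 and 0.65 for S in the order Pac16h, Pac48h, Cele2h, cele16h and PacCele16h. Their part in the members' differences was not tested. The 4 G2/M members have a CHR spelling in the windows printed above, which for CENPE and CENPF is TTTAAA only. CENPU and CENPK have none, but CENPW has none either, and CENPN, which followed both lists alike, has TTTGAA.

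**Figure D4:**
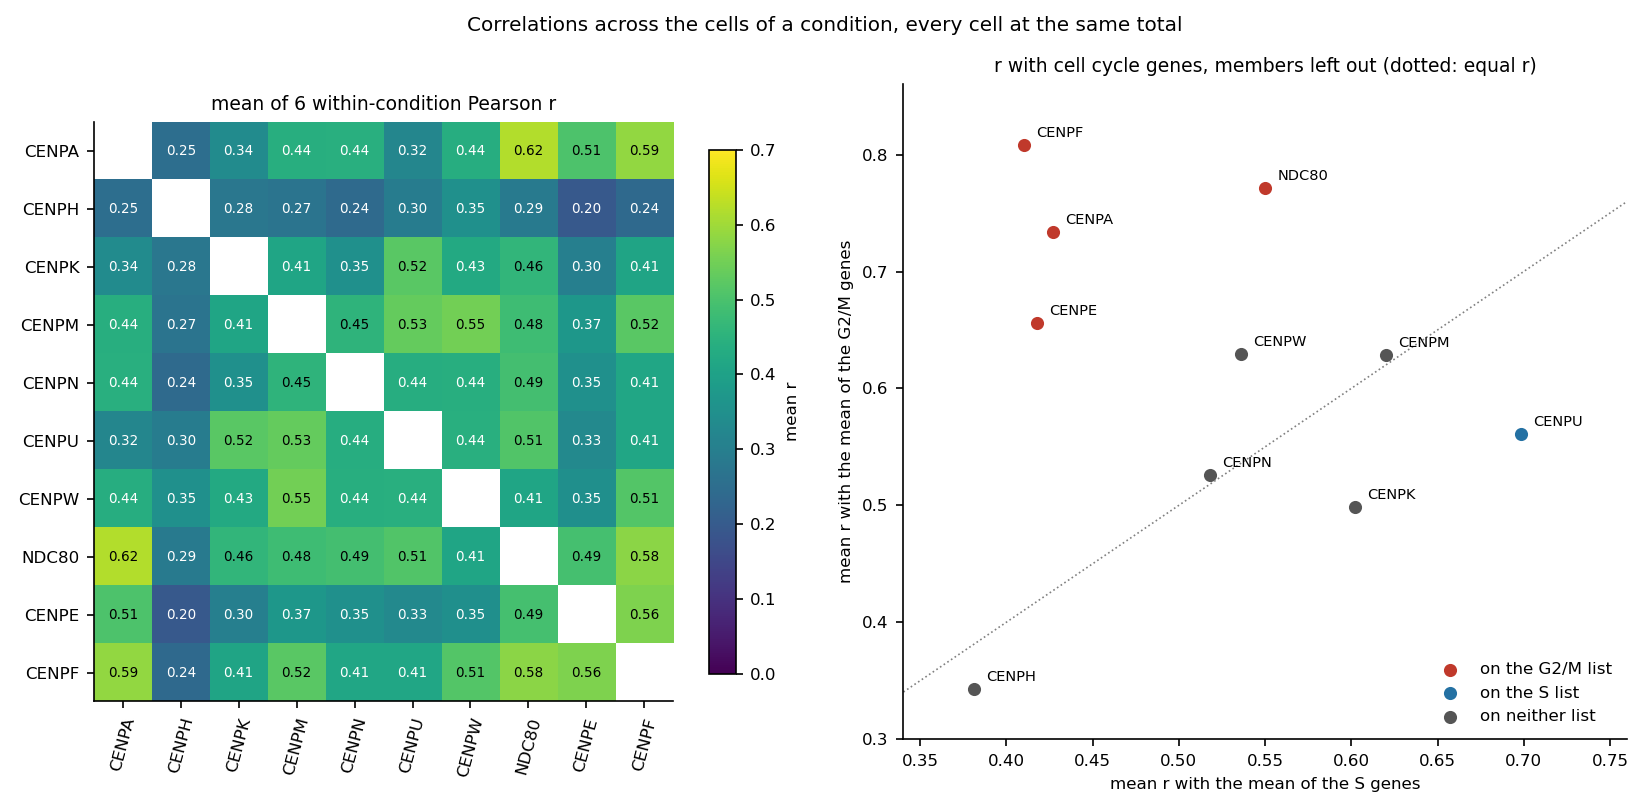
Left, mean of the 6 within-condition Pearson r for each pair of members at the same total (colour and number). Right, mean r of each member with the mean of the S genes (x axis) and of the G2/M genes (y axis), coloured by list. CENPF, NDC80, CENPA and CENPE lie well above the dotted line of equal r, and CENPH has the darkest row.

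The 3 genes most like each member were taken by mean r over the 6 conditions among 7571 genes. CENPA was nearest to AURKB (0.63), NEK2 (0.62) and NDC80 (0.62). CENPF was nearest to CCNB1, which encodes cyclin B1 (0.70), TOP2A (0.70) and AURKB (0.69). NDC80 was nearest to SPC25, a subunit of the same complex (0.70), TOP2A (0.69) and KIF2C (0.67). CENPE was nearest to UBE2C (0.59), GTSE1 (0.58) and CENPF (0.56). UBE2C, a ubiquitin-conjugating enzyme of the anaphase-promoting complex, was also first for CENPK (0.54), CENPM (0.63) and CENPN (0.50), followed by NUSAP1 (0.52) and CENPU (0.52) for CENPK, PBK (0.62) and TOP2A (0.59) for CENPM, and TOP2A (0.50) and NDC80 (0.49) for CENPN. CENPU was nearest to PCLAF, a PCNA-binding factor (0.63), MND1 (0.63) and NUSAP1 (0.61), and CENPW to the histone H2AFZ (0.65), PBK (0.64) and HMGB2 (0.64). CENPH was also nearest to PCLAF, at 0.42, ahead of CENPW (0.35) and PBK (0.35).

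Other kinetochore and centromere genes were read from a list of 38 names, of which 35 had values. Once totals were equal, 5 of 35 were lower than Ctrl by over log2 of 1.5 at Pac16h, 10 at Pac48h, 7 at Cele2h, 14 at cele16h and 12 at PacCele16h, against 10.0%, 5.78%, 8.12%, 7.95% and 5.80% of all genes. The counts of higher genes were 1 at Cele2h (CENPC, 0.60), 1 at cele16h (MIS12, 0.66) and 0 in the other treatments, both named after their values were seen. The medians over the list were -0.34, -0.42, -0.28, -0.37 and -0.47, against -0.07 to 0.03 over all genes. As deposited, 22, 24, 20, 29 and 4 were lower, against 37.3%, 26.6%, 25.7%, 43.9% and 1.76% of all genes, and 3 were higher at PacCele16h, against 30.4%. The largest differences were those of AURKB, the kinase of the chromosomal passenger complex, at -1.68, -1.87, -2.00, -3.22 and -2.32 at the same total, and its partner BIRC5 (survivin) had -1.56 at cele16h and -1.23 at PacCele16h.

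In the outer kinetochore ZWINT, which links to the corona, had -1.74 and SPC25 -1.36 at cele16h, and SPC25 kept -1.20 at PacCele16h. Among factors that load CENP-A, OIP5 had -0.74 at cele16h. The genes of this list grouped here under inner kinetochore differed less than the members of that role, with a median of -0.23 over 10 genes at cele16h. Of these, ITGB3BP had -0.84 and CENPV, placed in this group by the list used here, -0.33. Their control means at the same total ran from 0.08 to 5.08, several of them low, and those of the members of that role from 1.32 to 4.00. A gene near 0 in Ctrl can fall little, and the part of control level here was not tested. Members and list were chosen with earlier results of these data known, and the part of that choice was not tested either. In the Ska complex SKA2 had -0.97 at cele16h and 0.01 at PacCele16h, while SKA3 had -0.61 and -0.72. The corona genes SPDL1 and ZWILCH had -0.94 and -0.43 at cele16h, and the cohesion protectors SGO1 and SGO2 had -0.73 and -0.42.

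**Figure D5:**
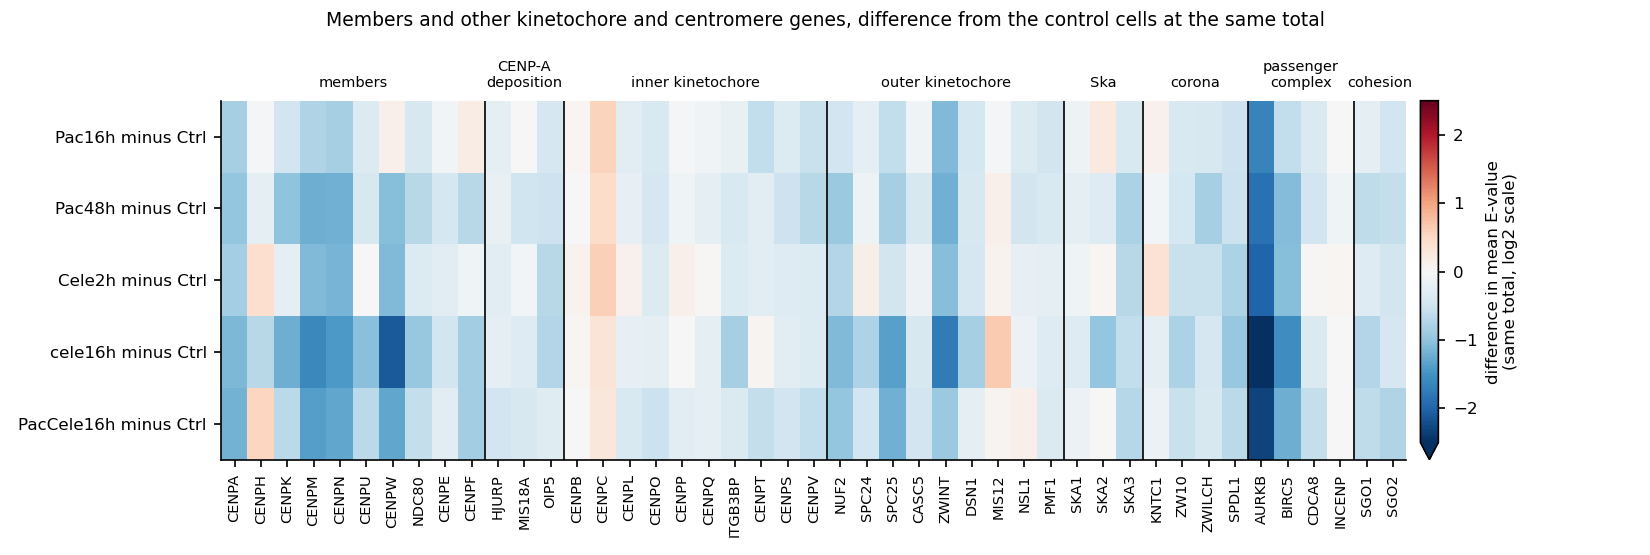
Mean E-value of treated minus control cells at the same total (colour, log2 scale, red higher and blue lower) for the 10 members and 35 other genes (x axis, by role) in the 5 treatments (y axis). AURKB is the darkest column, at -3.22 for cele16h and beyond the colour scale. Most genes grouped under inner kinetochore outside the members, several of them low in Ctrl, are pale.

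The authors' transcriptional states, which were assigned from the expression of genes in these same cells, divided the members. At Pac16h the 23 cells called Control had a median member difference of 0.30 from Ctrl at the same total and the 31 called Suppressive -1.03. The 2 cells called Activation had 0.77. Control and Suppressive cells had -0.46 (28 cells) and -1.06 (25 cells) at Pac48h, and 0.002 (26 cells) and -0.88 (33 cells) at Cele2h, where 4 Activation cells had 0.93. All 10 members were detected in each of the 6 Activation cells. Suppressive cells had medians of 7, 5 and 5 members detected in the 3 treatments, and Control cells 9, 8 and 8.5. The states are no independent grouping, since the genes that set them were read in the same cells.

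PacCele16h and Pac48h cells each fell in 2 of the blocks of 96 library indices, and for PacCele16h the blocks differed. Its 34 cells of block 1 had a median member difference of -0.14 (-0.63 at the same total) and its 25 cells of block 3 -0.98 (-1.08). Over all genes the medians were 0.36 and 0.30. NDC80 was 0.16 above Ctrl in block 1 and -1.03 in block 3. As deposited, 2 members were past the limit downward in block 1 and 8 in block 3, against 1.55% and 3.44% of all genes. Upward there were 1 and 0, against 33.9% and 28.2%. For Pac48h the medians were -1.39 in block 2 (22 cells) and -1.26 in block 4 (31 cells). Control cells all carried block 4, so block and condition cannot be told apart for the other treatments.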

How the data were processed

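The authors computed TPM per gene in RSEM 1.3.0 (with Bowtie2), after Trim Galore removed adapters, against hg38 transcripts (GENCODE version 28) joined to 3 spike-in RNAs. Spike-in levels scaled each cell, low housekeeping expression removed cells (338 of 372 remained), and a gene needed a share of cells over 30% in some condition. The deposited values are log2 E-values, E = log2(N/10 + 1), to 3 decimals, read here with every column used. Doublets were not sought, for lack of counts.

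N was recovered from E. At the same total, N of each cell was scaled to the median total over 338 cells and E taken again. Differences are in mean E-value, with a limit of log2 of 1.5 and no test. Shares have exact Clopper-Pearson 95% intervals. On this scale the pseudocount of 10 understates differences of low genes. Members, gene lists (kinetochore genes by role, Seurat 5.3.0 cell cycle lists) and the rule for the named genes were chosen with earlier results of these data known. Besides the members, the text names up to 2 listed genes per role with the largest difference at the same total, and the 3 nearest genes of each member. A gene first listed among the kinetochore genes is not reported here. The difference step was tested on simulated data. Computing used scipy 1.17.1 under Python 3.11.15 with pandas 2.3.3.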

Additional observations from a re-analysis of the deposited data

How the results depend on the processing

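The count of members past the limit downward moved by over 1.5 times in 13 of 39 comparisons with an alternative, and that upward, mostly 0 throughout, in 3 of 39. Members lower at Pac16h (6) numbered 3 at the same total, with a median-of-ratios factor (413 genes detected in every cell) and from linear means. Median E-values gave 10. Of all genes, 10.0%, 11.2%, 39.0% and 43.8% were lower in these settings, in that order. From linear means the median member difference was -0.453 and that of all genes -0.456. At Cele2h (7) the members lower numbered 4 at the same total, with the factor and from linear means, against 8.12%, 8.12% and 24.0% of genes. From linear means the medians there were -0.21 for members and -0.27 for all genes. At PacCele16h (4 lower, 1 higher) there were 8 lower and 0 higher at the same total and 7 lower with the factor. Linear means gave 0 lower and 3 higher, and a pseudocount of 1 gave 8 lower. Of all genes, 5.80%, 4.46%, 0.414% and 8.98% were lower in these settings, and 56.8% were higher from linear means. Index block 1 of PacCele16h alone gave 2 lower (1.55% of all genes). Its block 3 alone gave 8 lower (3.44%) and 0 higher (28.2%). From linear means CENPN and CENPW at PacCele16h were 0.11 and 0.12 above Ctrl in place of -0.99 and -0.87. Where detected, their E-values as deposited were 0.27 and 0.17 above Ctrl, and at the same total 2.97 and 3.72 against 3.41 and 4.28. Leaving out the 1 retained well noted as 0 or debris changed no member's side of the limit. Leaving out the 5% of cells at either end of the totals changed 3 of 50 sides. Of 390 member differences under an alternative, 317 stayed on their side of the limit, and 22 changed sign, of which 2 were past the limit as reported. Those 22 include 7 from linear means and 4 at the same total. Shares of cells left their 95% interval in 8 of 60 cases with E of at least 1, and in 40 of 60 with only cells of at least 6303 genes. Median pair correlations moved by over 0.1 in 2 of 12 cases, with deposited E-values. No paired analysis was possible because each condition was 1 sample. Depth is limited to the genes detected, since read counts are unknown, and a gene at 0 may have been missed.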
